A study of Rattus norvegicus with 4 samples.

Results

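Cd68, Cd163, Mrc1, Adgre1, Csf1r, Itgam, Lyz2, Cd14, Slc11a1 and Marco, 10 genes that mark macrophages or serve their handling of iron, were followed in the pancreas of rats fed too little, enough or too much iron. They were found on the array by gene symbol, with the older name Emr1 accepted for Adgre1, and are measured by 12 of the 30367 gene probes, or 10 of 26485 genes and transcripts. Csf1r and Itgam have 2 probes each, and every member probe is a single spot per array. Male Sprague-Dawley rats were fed for 3 weeks an iron-deficient (FeD, 5 ppm iron), iron-adequate (FeA, 35 ppm by the labels) or iron-overloaded (FeO, 20275 ppm) diet. The rats were weanlings when feeding began, and neither an allele nor an agent other than the diet is named. RNA of whole pancreas from 6 rats per diet was combined into 1 pool. A diet pool and the FeA pool shared an array in the dyes Cy3 and Cy5, with FeD or FeO in Cy5 on array 1 and in Cy3 on array 2.

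Each diet is therefore 1 sample. The 2 arrays of a comparison hold the same RNA, so the gap between them is technical, the spread among rats was not measured, and no test of a diet was possible. All 4 arrays lie on 1 slide read in 1 scan. Values are log2 ratios of a diet pool over the FeA pool within an array, after background correction and normalization of spot intensity, and a mean ratio of 1 is a linear fold of 2. Over all probes that passed the filter described next, the swapped arrays lay a median of 0.22 apart in FeD and 0.23 in FeO on this scale, and 5% of probes lay more than 0.72 and 0.78 apart. A probe passed when the scanner software placed it well above background on both arrays in at least 1 of the 2 pools. The number of arrays and the signal over background limit the precision, and 61.9% to 71.5% of gene spots per channel were well above background.

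Macrophages are phagocytes that reside in nearly every organ, the pancreas included, and can also arise from blood monocytes. Those of the spleen and liver clear aged red cells, take up haemoglobin and heme, release the iron with heme oxygenase and return it to plasma through ferroportin. CSF1R, the receptor for the growth factors CSF1 and IL-34, is needed for the survival of most tissue macrophages, and the transcription factor PU.1, encoded by Spi1, drives many of their genes. Whole pancreas is mostly acinar tissue, so these transcripts come from a minor fraction of the cells. In a pool of whole tissue, fewer cells of a type and less RNA per cell cannot be told apart.

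Acinar genes were well above background in every pool, and the tissue of the label was thus seen in its markers. Of the 10 macrophage members, 9 had a probe well above background in all 8 channels (10 of the 12 probes). Mrc1, the mannose receptor, was not well above background in any channel. The general markers Cd68 and Csf1r were well above background in all 3 pools. Itgam and Lyz2 are also made by neutrophils and monocytes, and Cd14 by monocytes, so the members do not mark macrophages alone.

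None of the 9 members that passed reached a mean log2 ratio of 2, the size criterion of the study's methods, or of 1, in either comparison. Of 15727 genes that passed in FeD and 16425 in FeO, 0.127% were higher and 0.248% lower by at least 1 in FeD, and 0.664% and 0.505% in FeO. At the criterion of 2 the shares were 0.0191% higher and 0.089% lower in FeD, and 0.0609% higher and 0.134% lower in FeO. In FeO pancreas 3 members came close to a ratio of 1. Cd163 (mean 0.95) and Cd14 (0.94) were higher than in FeA, and Marco (-0.93) was lower, each on both arrays. The same genes had means of 0.22, 0.29 and -0.09 in FeD pancreas. A gene was counted past a size when any probe that passed reached it with the same sign on both arrays. With the gene taken instead as the mean over its passing probes, 6 of 9 members were higher on both arrays in FeD and 1 was lower, against 25.3% and 21.7% of all genes. In FeO 5 of 9 were higher on both arrays and 1 was lower, against 28.1% and 24.2% of all genes. Itgam is among the 5 only through its dim probe, A_43_P15993, for which FeA was not well above background. Its bright probe had 0.30 and -0.02. The median ratio of the members was 0.22 in FeD, where all genes had 0.01, and 0.27 in FeO, where all genes had 0.01. The FeD median was 0.41 on array 1 and 0.10 on array 2, and the FeO median was 0.16 where both pools had to be well above background. In FeO, array 1 alone put 2 members past 1 (Cd14 and Marco) and array 2 alone put 1 (Cd163), and normexp with an offset of 0 or the scanner software's processed signals put 4 past it (Cd163, Cd14, Marco and Itgam). Itgam counted there by its dim probe, which was not well above background in FeA, and with offset 0 the mean of its probes was 0.63. Both comparisons use the same FeA pool and are not independent.

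**Figure D1:**
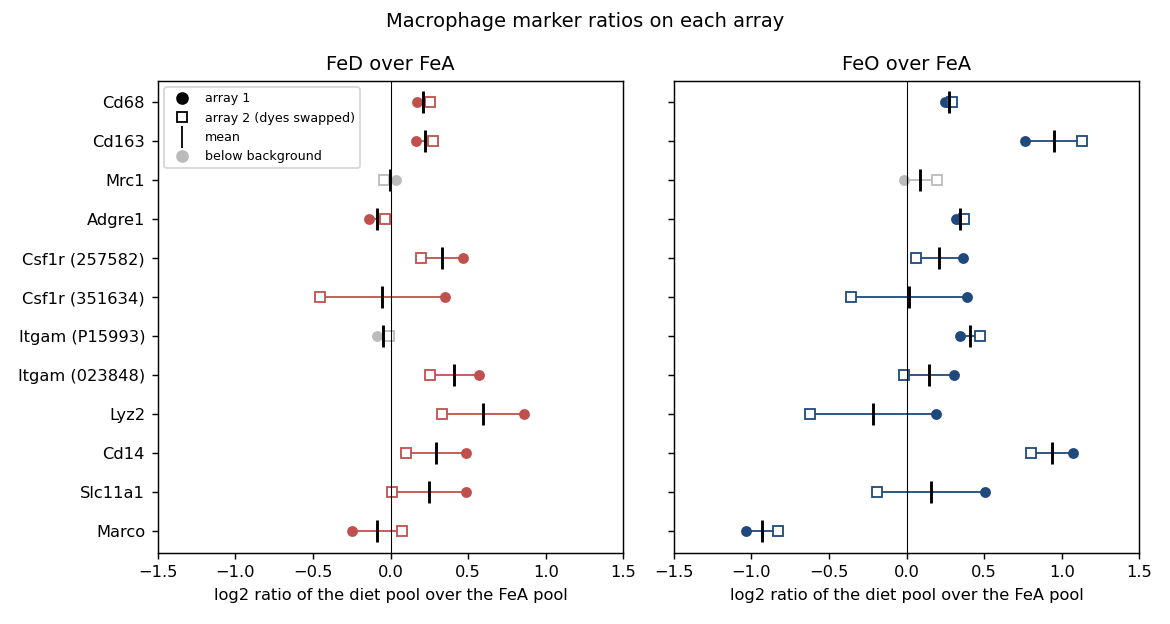
Log2 ratio of the FeD pool (left) and the FeO pool (right) over the FeA pool for the 12 member probes. Circles are array 1, open squares array 2 with the dyes swapped, vertical marks their mean, and grey marks probes that did not pass; in FeO, Cd163 and Cd14 lie near 1 and Marco near -1 on both arrays, whereas Lyz2, Slc11a1 and the Csf1r probe A_64_P351634 straddle 0.

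Cd163 and Slc11a1 are the members that deal with iron directly. CD163 is the scavenger receptor that takes up complexes of haemoglobin with haptoglobin. Its ratios in FeO pancreas (probe A_64_P053012) were 0.77 on array 1 and 1.13 on array 2, a mean of 0.95 or 1.93-fold, which is percentile 99.3 of all genes that passed. With the scanner software's processed signals the mean was 1.51. On the normalized log2 intensity scale, after the arrays were brought to a common distribution, the FeO pool had 8.03 and 8.10 and the FeA pool 6.97 to 7.27 over its 4 arrays, with no overlap. The FeD pool had 7.26 and 7.52, with ratios of 0.17 and 0.27 (mean 0.22). The order of the pools was FeA, FeD, FeO, in which the intensities of FeA and FeD overlapped.

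Slc11a1 encodes NRAMP1, a transporter that moves iron and other divalent metals out of the phagosome. The ratios of probe A_44_P466118 were 0.49 and 0.01 in FeD (mean 0.25) and 0.51 and -0.19 in FeO (mean 0.16). The FeO arrays differed in sign and the FeD arrays lay 0.48 apart, so no order of the pools can be read. Its signal was weak, with 26 to 100 intensity units over local background in the FeA channels.

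Adgre1 (F4/80, an adhesion receptor), Cd68 (a lysosomal glycoprotein), Csf1r and Mrc1 are general markers of tissue macrophages. Adgre1 (probe A_44_P362749) had ratios of 0.32 and 0.37 in FeO (mean 0.34, 1.27-fold) and of -0.14 and -0.04 in FeD (mean -0.09). It was the 1 member with a probe that passed in both comparisons and lay below FeA on both FeD arrays and above it on both FeO arrays. The FeD mean was smaller than the median array gap, and the FeD intensities of 7.64 and 7.55 lay within the FeA range of 7.44 to 7.77. For Cd68 (probe A_64_P019260) the FeD arrays gave 0.17 and 0.26 (mean 0.21) and the FeO arrays 0.25 and 0.29 (mean 0.27), so it was slightly higher in both diets. Its FeD intensities of 8.58 and 8.55 and its FeO intensities of 8.61 and 8.53 lay above the FeA range of 8.24 to 8.41 and overlapped each other.

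The Csf1r probes differed. For probe A_44_P257582 the FeD arrays gave 0.47 and 0.19 (mean 0.33) and the FeO arrays 0.36 and 0.06 (mean 0.21). For probe A_64_P351634 they gave 0.35 and -0.46 in FeD, then 0.39 and -0.36 in FeO, that is, it was higher in whichever pool carried Cy5. Its array gaps of 0.81 and 0.75 were among the widest of the members, and its means were -0.05 and 0.02. Mrc1 (probe A_43_P18738), not well above background, gave ratios from -0.04 to 0.20.

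Cd14 and Marco, both of which bind bacterial products, lay on opposite sides of FeA in FeO pancreas. CD14 is the co-receptor that hands lipopolysaccharide to TLR4, and MARCO is a class A scavenger receptor of a subset of macrophages, among them those at the borders of lymphoid tissue. Cd14 (probe A_44_P469584) had ratios of 1.07 and 0.80 in FeO (mean 0.94, 1.91-fold), at percentile 99.3 of all genes. Its intensities were 8.91 and 8.66 in FeO against 7.84 to 8.11 in FeA, and 8.41 and 8.21 in FeD. The FeD ratios were 0.49 and 0.10 (mean 0.29), and the order was again FeA, FeD, FeO, here with no overlap between neighbours.

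Marco (probe A_44_P175833) was the lowest member in FeO, with ratios of -1.04 and -0.83 (mean -0.93, 0.524 of the FeA level), at percentile 0.548 of all genes. With processed signals the mean was -1.79. Its FeA intensities were the tightest of the members, 7.57 to 7.63 over 4 arrays, and both FeO values (6.59 and 6.74) lay below them. Its FeO signal was weak, at 74.5 and 47 intensity units over local background, against 112.5 to 179 in the FeA channels. The FeD values of 7.37 and 7.67 lay on either side of the FeA range, with ratios of -0.25 and 0.07.

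**Figure D2:**
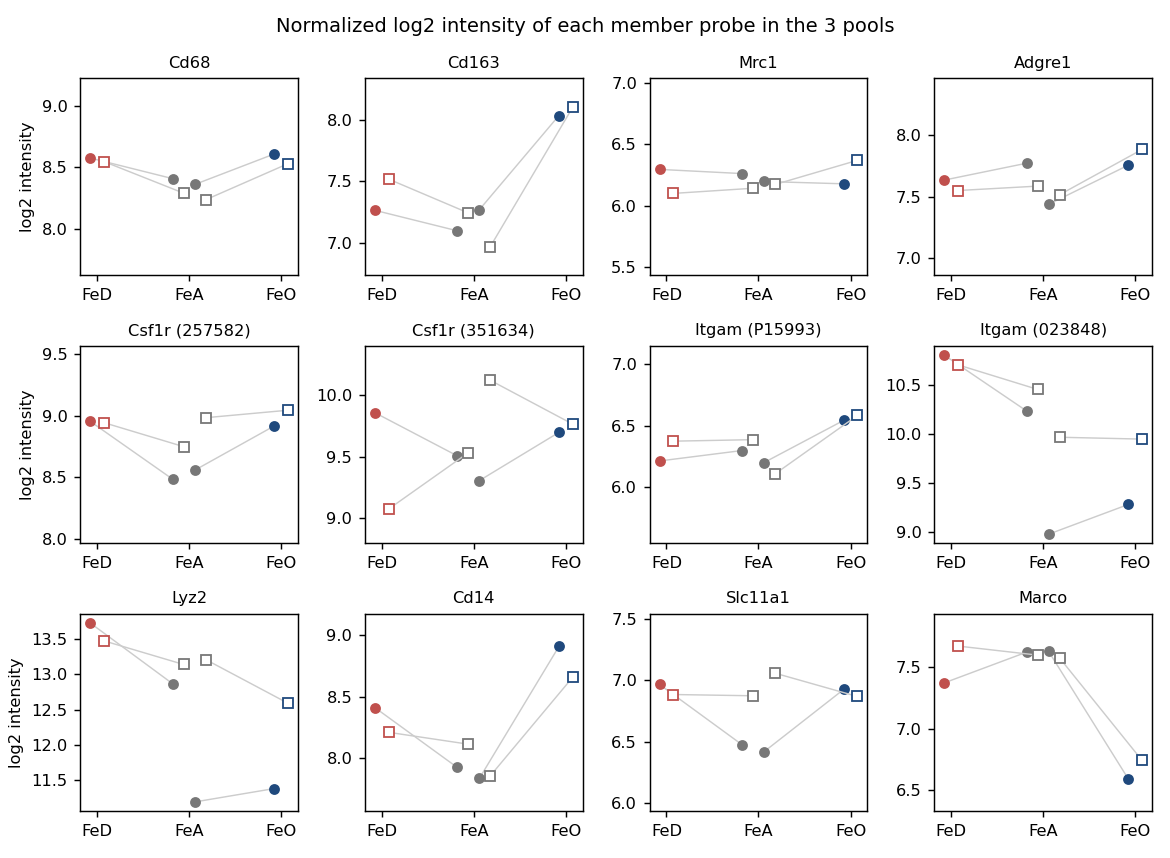
Normalized log2 intensity of the 12 member probes in the FeD pool (2 arrays), the FeA pool (4 arrays) and the FeO pool (2 arrays). Circles are array 1 and open squares array 2 of a comparison, grey lines join channels of 1 array, and each panel has its own vertical scale; Cd163 and Cd14 stand above and Marco below every FeA value in FeO, and for Lyz2 the FeA pool itself spans 11.19 to 13.21.

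Itgam and Lyz2 are shared with neutrophils and monocytes. ITGAM (CD11b) is the alpha chain of complement receptor 3, and lysozyme 2 digests bacterial walls. Lyz2 (probe A_64_P025286) had ratios of 0.86 and 0.33 in FeD (mean 0.60, 1.51-fold), the highest of the members there, at percentile 99.0 of all genes. In FeO its arrays differed in sign, with 0.19 and -0.62 (mean -0.21). The difference FeO minus FeD, which is indirect through FeA, was -0.67 and -0.95 with the dyes matched (mean -0.81). Its FeA intensity was 11.19 on array 1 of FeO and 12.87 to 13.21 on the other 3 arrays, and the FeO intensities were 11.38 and 12.59 likewise. The bright Itgam probe was likewise low in both channels of that array, at 8.98 in FeA against 9.97 to 10.46 on the others. Ratios are taken within an array, and the part of this array in them was not tested.

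The bright Itgam probe, A_64_P023848, was higher on both FeD arrays, at 0.57 and 0.25 (mean 0.41), and stood at 0.30 and -0.02 on the FeO arrays (mean 0.14). The dim probe, A_43_P15993, was not well above background in FeD or FeA. In FeO it was well above background on both arrays, with ratios of 0.34 and 0.47, and was at least 1.25-fold higher than FeA. This bound sets the FeO intensity against the higher of the FeA value and the lowest signal well above background. Its mean was 0.41, or 2.63 with processed signals. The bright probe thus had its highest ratio in FeD, whereas the dim one was well above background in FeO alone.

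Between the diets, the array ranges of Cd163, Adgre1 and Cd14 were higher in FeO than in FeD without overlap, by means of 0.73, 0.43 and 0.65, and so was the dim Itgam probe, which was not well above background in FeD. Those of Marco and Lyz2 were lower in FeO without overlap, by -0.85 and -0.81. Of the 10 member probes that passed in both comparisons, 3 were thus higher and 2 lower in FeO without overlap, where 14.3% and 14.8% of all 16951 such probes were. The ranges of Cd68, Slc11a1, both Csf1r probes, the bright Itgam probe and Mrc1 overlapped.

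A wider list of 25 other macrophage genes, all on the array, was higher than FeA more often than not. In FeD, 18 of the 19 genes that passed were higher on both arrays and none was lower on both, with a median of 0.43. In FeO, 17 of 22 were higher on both arrays and 1 was lower, with a median of 0.42. No gene of the list reached a ratio of 1 in either comparison. C1qa, a subunit gene of C1q that macrophages supply to the complement system, had the highest mean of the list in both diets, at 0.51 and 0.71 in FeD (mean 0.61) and at 0.58 and 1.15 in FeO (mean 0.86). C1qb, another subunit gene, had means of 0.60 in FeD and 0.48 in FeO. In FeO, Clec10a, a lectin of alternatively activated macrophages, had 1.02 and 0.53 (mean 0.78), and Trem2, a lipid-sensing receptor, 0.96 and 0.51 (mean 0.73). Clec4f, known from the Kupffer cells of the liver, had means of 0.54 in both diets. Spi1 had a mean of 0.36 in FeD. In FeO its ratios were 0.01 and 0.29 (mean 0.15). Its FeA channels were well above background on neither of these arrays, but on both arrays of FeD. The lowest were Lgals3 in FeD (0.04 and -0.08) and Laptm5, a lysosomal protein of all blood cells, in FeO (-0.40 and -0.57). Laptm5 was higher in FeD (0.59 and 0.50). Mpeg1, Vsig4 and Cd86 were not well above background in any pool. Summed over the list, the normalized intensity on arrays 1 and 2 was 26111 and 25386 in FeD against 20279 and 19073 in FeA, and 22652 and 22151 in FeO against 20127 and 17291.

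The genes through which macrophages recycle heme iron were about evenly split between higher and lower. Of 21 genes, 19 are on the array and 15 passed in each comparison. In FeD 4 were higher and 5 lower on both arrays (median 0.01), and in FeO 6 and 6 (median 0.02). Heme oxygenase 1 (Hmox1) had 0.05 and 0.15 in FeD and -0.04 and 0.20 in FeO. Ferroportin (Slc40a1) was lower on every array, with means of -0.34 in FeD and -0.30 in FeO. Lrp1, the receptor for hemopexin and many other ligands, had 0.73 and 1.47 in FeO, the only mean of this list past 1, and a mean of 0.06 in FeD. The lowest in FeD was the iron importer Slc11a2 (mean -0.37), and the highest was the transferrin receptor Tfrc (0.38), which was also the lowest in FeO (-0.58). The ligand of the Cd163 pathway, haptoglobin (Hp), had 0.67 and 0.31 in FeO (mean 0.49) and did not pass in FeD. It passed in FeO only because FeO was well above background on both arrays, as FeA was so on 1. Spic, the transcription factor of red pulp macrophages, was in no pool well above background on both arrays of a comparison.

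Genes that recruit or sustain macrophages were also higher than FeA in most cases. Of 10 listed, 6 passed in FeD and all 6 were higher on both arrays (median 0.26), against 25.3% of all genes. In FeO 8 passed, 7 were higher on both arrays and none was lower on both (median 0.37), against 28.1% and 24.2% of all genes. Ccl7 and Ccr2 are among the 7 and passed only because FeO was well above background, as FeA was on neither array. Cxcl12 counts in both diets as the mean of 2 probes that differed, at -0.01 and 0.65 in FeD and -0.21 and 0.83 in FeO. The monocyte chemokine Ccl2 had 0.74 and 0.39 in FeD (mean 0.56) and 1.07 and 0.72 in FeO (mean 0.90). The CSF1R ligands Csf1 (mean 0.30 in FeD, 0.57 in FeO) and Il34 (0.23, 0.43) were higher on every array. Ccl7 was at least 1.69-fold higher in FeO, with FeA not well above background. Ccl3 had the lowest mean of the list in both, 0.15 in FeD, close to Cx3cl1, and -0.08 in FeO.

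Markers of other cells differed between the same pools. In FeO the adipocyte list had a median of 1.47, with 6 of 7 genes higher on both arrays and 4 past 1, led by Adipoq (1.97 and 2.17) and Cidec (1.48 and 2.35), with Retn at a mean of 1.83, Fabp4 at 1.47 and Lep lowest at 0.10. Its summed intensity on arrays 1 and 2 was 16415 and 15223 in FeO against 6790 and 6451 in FeA. In FeD the median of the 6 that passed was 0.03, from Retn (-0.44) to Adipoq (0.21). All 6 mast cell genes that passed were higher on both arrays in FeO (median 1.00), against 28.1% of all genes. Means past 1, reached by 0.664% of all genes, were those of Cma1 (mean 1.69), Tpsab1 (0.89 and 1.32) and Tpsb2 (mean 1.08). Kit was lowest (0.52). The summed intensity of this list was 1839 and 1954 against 1001 and 1017. In FeD the median was 0.07, from Mcpt1 (-0.25) to Kit (0.41).

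The leukocyte lists lay on opposite sides of FeA in the diets. The 6 pan-leukocyte genes had a median of 0.62 in FeD, where 5 were higher on both arrays, against 25.3% of all genes. In FeO their median was -0.52 and 5 were lower on both arrays, against 24.2%. Coro1a, an actin regulator of leukocytes, had 0.91 and 0.98 in FeD against -1.10 and -1.14 in FeO. The least different of these genes were Lcp1 in FeD (mean 0.10) and Cd48 in FeO (0.11). The sum on arrays 1 and 2 was 14308 and 12960 in FeD against 9415 and 9347 in FeA, and 5006 and 5294 in FeO against 8374 and 8958. The lymphocyte list had a median of 0.44 over 11 genes in FeD and of -0.43 over 9 in FeO. In FeO Cd3g of the T cell receptor complex had -1.08 and -1.29, and Cd4 had the highest mean (0.09). Cd3e, Cd5 and Cd8a passed in FeO only because FeA was well above background on both arrays, as FeO was on 1. Cd2 and Ms4a1 passed in FeD only because FeD was so on both arrays, as FeA was on 1. In FeD the B cell gene Cd79b was highest (mean 0.96) and Nkg7 lowest (0.11). The lymphocyte sum was 4861 and 4669 in FeD against 3222 and 2983 in FeA, and 2009 and 2256 in FeO against 3165 and 3210. Marco and Lyz2 were lower in FeO than in FeD, as were these lists, whereas Cd163, Cd14 and Adgre1 were higher.

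Of the 12 neutrophil genes, 4 passed in FeD (median 0.16) and 6 in FeO (median 0.04). S100a8, Elane, Mmp8 and Mmp9 were not well above background in any pool, and S100a9 was so on both arrays in FeO alone. The sum was 1500 and 1516 in FeD against 1316 and 1280 in FeA, and 1833 and 2035 in FeO against 1543 and 1543. Lcn2, which epithelial cells also make, was highest in both (0.66 in FeD, and 1.15 in FeO as the only one past 1), and Ngp was lowest (-0.40 and -0.55). The dendritic cell list had 3 genes passing in FeD (median 0.24) and 4 in FeO (median -0.22), where Cd83 was highest in FeD (mean 0.77) and lowest in FeO (-0.64), and Flt3 was highest in FeO (0.33). The acinar list had medians of -0.06 over 10 genes and -0.32 over 7, with 3 genes left out in FeO because a spot was marked as an outlier. Cel had the lowest mean in both (-0.31 and -0.65), and Ctrb1 the highest (0.60 and 0.19). The part of these other cell types in the macrophage ratios was not tested.

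**Figure D3:**
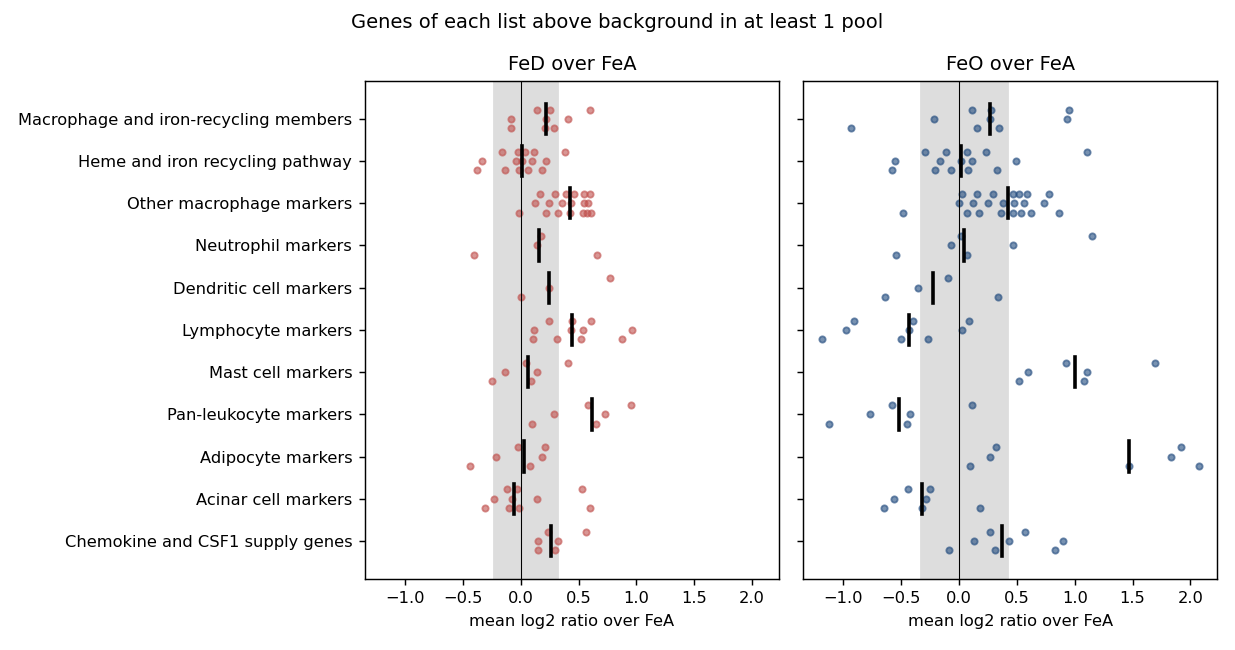
Mean log2 ratio over FeA of every gene that passed, by list, in FeD (left) and FeO (right). Points are genes, black bars list medians and the grey band the 5th to 95th percentile of all genes; the other macrophage genes have medians of 0.43 and 0.42, the heme iron genes lie around 0, and the lymphocyte and pan-leukocyte medians are above 0 in FeD and below 0 in FeO.

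The promoter sequences that RefSeq gives on GRCr8 were examined for the members, from 250 bases before to 50 after the start of transcription. A promoter was given for 9 of the 10 members. The 6 letters GAGGAA, the core of PU.1 sites, occurred on either strand in 8 of the 9, and in 27.6% of all 33469 promoters of the same length. The longer form GAGGAAGT occurred in 0 of the 9 (2.42% of all promoters), TGACNNNGC, the core of the antioxidant response element that Nrf2 and Bach1 bind, in 0 of the 9 (12.1%), and the AP-1 site TGACTCA in 1, Cd68 (4.63%). Every GAGGAAGT also counts as GAGGAA. A match is a description and not a binding site. The stretches around GAGGAA are shown for the members with a probe whose ratios did not overlap between FeO and FeD. Itgam is included by its dim probe alone, which was not well above background in FeD. The motif is in capitals, 5′ to 3′ on the strand of the gene, where TTCCTC is GAGGAA on the other strand. The Cd14 and Marco windows lie within the annotated span of the gene, so their start is not its outermost one, and the nearer Itgam site lies within its gene span too. The Lyz2 stretch lies partly within its gene span, and the GAGGAA in it lies inside that span.
Cd14, chr18:28611281-28611310, minus strand: tagggttgttagGAGGAAgagaagtgggga
Cd14, chr18:28611246-28611275, minus strand: gttgagttcacaGAGGAAgggacagggtga
Marco, chr13:34201342-34201371, minus strand: tgaactgggtcaGAGGAAgatctttgtctg
Adgre1, chr9:2329221-2329250, plus strand: gaaatggaaagaGAGGAAggaagaggggaa
Itgam, chr1:192089429-192089458, plus strand: tgtgatgtcccaGAGGAAggctacacaggg
Itgam, chr1:192089541-192089570, plus strand: ggctttagtggcTTCCTCaaagtgtttgtg
Lyz2, chr7:54798040-54798069, minus strand: ctgtcaggaaagGAGGAActtggaggatgc

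Cd163, the highest member in FeO, was the 1 member whose promoter held no GAGGAA. Its stretch upstream of the annotated gene is shown for that reason, with no part in capitals.
Cd163, chr4:158770524-158770723, plus strand: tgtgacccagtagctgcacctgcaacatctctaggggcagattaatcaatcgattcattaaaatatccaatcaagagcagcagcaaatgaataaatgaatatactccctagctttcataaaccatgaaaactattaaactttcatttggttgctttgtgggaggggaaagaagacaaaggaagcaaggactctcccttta
Cd14, higher in FeO, and Marco, lower in FeO, both carried the core.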

How the data were processed

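The deposited intensity values are median spot and local background signals as the authors' scanner software (Agilent's Feature Extraction, release 10.1.1.1) wrote them, and background-subtracted, dye-normalized processed signals. The deposited log10 values are Cy5 over Cy3 processed signal and keep the dye orientation of their array. Of the authors' tables of log2 fold changes with p and q values, only gene symbols were used.

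Background correction and normalization used limma 3.58.1 under R 4.3.3: normexp with an offset of 50 on median signals, outlier spots left out, loess within each array with control spots at weight 0, and array 2 turned. Channel intensities were taken after Aquantile. A probe was well above background when over 50% of its spots were. Genes were named by accession in RefSeq (59.3% of probes), the authors' symbol (16.3%), or the array's own identifier (24.4%). The steps were tested on simulated data. Tables were made with Python 3.11.15 and pandas 2.3.3.

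The members and all 11 lists were chosen with earlier results of these data known. All members are named, and of other lists the genes past a log2 ratio of 1 and the most extreme ones, plus genes of known function chosen after their values were seen. Alternatives were other background correction, scaling, filters and probe rules, the scanner software's ratios, each array left out, the methods' t-test and limma.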

Additional observations from a re-analysis of the deposited data

Results flagged for a closer look

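Adgre1 is singled out because both FeD arrays lay below FeA (-0.14 and -0.04) and both FeO arrays above it (0.32 and 0.37). The mean ratio of FeO over FeA exceeded that of FeD over FeA by 0.43. With 1 pool per diet the difference was not tested, and the FeD mean of -0.09 was smaller than the median gap between swapped arrays.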

How the results depend on the processing

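The member counts in FeD, at 1 and at 2, stayed at 0 under every alternative, while the genes past 1 were 0.375% as reported, 0.986% with normexp at offset 0, 1.93% with processed signals (148 higher and 156 lower, against 20 and 39) and 0.744% without array 1. Past 2 were 0.108% of genes in FeD and 0.195% in FeO, against 0.178% and 0.408% with offset 0 and 0.42% and 0.889% with processed signals. In FeO the count past 1 was 4 (Cd163, Itgam, Cd14 and Marco) with normexp at offset 0, where 2.44% of all genes were past it (1.17% as reported), and 4 with the scanner software's processed signals, where 4.09% were (2.17% without array 1). Itgam counted by its dim probe, with FeA not well above background. With a gene as the mean over its passing probes, a rule added after seeing the data, the count was 3 with offset 0 (2.28% of all genes) and 4 with processed signals (3.86%), and 0 with the reported correction. With processed signals 1 member, Itgam by its dim probe, passed 2. The median in FeO was 0.40 with offset 0, 0.38 with processed signals, and 0.16 when both pools had to be well above background or the brightest probe stood for the gene. With either array left out, the count past 1 in FeO was 1 (Cd163, without array 1) to 2 (Cd14 and Marco, without array 2), and the medians ran from 0.10 (without array 1) to 0.41 (without array 2) in FeD and from 0.23 to 0.32 in FeO. Of 96 values of single member probes under the 4 background and scaling settings that can move them, 71 stayed within the spread of the arrays and 25 moved beyond it. Under those settings the sign differed for Mrc1, the dim Itgam probe in FeD and Csf1r A_64_P351634 in FeO, and for 0 of the probes that passed with 1 sign on both arrays. With an array left out, the sign also follows the remaining array wherever the arrays differ in sign, as for Lyz2, Slc11a1 and the bright Itgam probe in FeO, Marco in FeD and Csf1r A_64_P351634 in both. Cd163 in FeO ranged from 0.80 to 1.51, the dim Itgam probe from 0.30 to 2.63, Cd14 from 0.87 to 1.19 and Marco from -1.79 to -0.78 over background and scaling settings. The causes were not tested. The methods' t-test was run on channel intensities without pairing the 2 channels of an array, whereas limma used the ratios within arrays. Both measure technical error. The t-test placed 0 of 10 member probes in FeD and 5 of 11 in FeO below threshold, against 6.24% and 7.88% of all probes. The 5 were Adgre1, Cd14, Cd163, Marco and the dim Itgam probe, and 0 remained after Benjamini-Hochberg. That Itgam probe passed only because FeO was well above background, as FeA was on neither array. limma placed 3 and 5 below threshold, against 8.08% and 11.9% of all probes, the dim Itgam probe again among the 5. After adjustment 0 and 1 remained, against 0.531% and 1.01%. Replicates could not be paired, because each diet is 1 pool and the array numbers follow accession order, not the labels. Each ratio already sets both pools of an array against each other. Dim probes (Mrc1, Slc11a1, Itgam A_43_P15993) limit the ratio to little more than background, and the FeO signal of Marco was weak too.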
